A study of Mus musculus with 10 samples.

Results

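The Raig receptors, named for their induction by retinoic acid, are the orphan G protein-coupled receptors Gprc5a, Gprc5b, Gprc5c and Gprc5d, and every probe set that the array's annotation assigns to one of these 4 genes was taken from the expression table. This gave 4 probe sets of 22626 in all, and they read 3 of the 4 genes (3 of 12393 genes with a probe set). Gprc5b was read by 2 probe sets, Gprc5c by 1 and Gprc5d by 1, whereas 0 probe sets were annotated to Gprc5a, the family member best known from lung, where it acts as a tumour suppressor. The family was chosen by the signal of Gprc5b, which differed between the labelled groups in these same arrays, so its difference between groups is given below as a description, with no test.

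RNA from the cerebral cortex of 10 male mice at 6 months of age was hybridised to Affymetrix mouse expression arrays, each mouse on an array of its own. By their labels, 5 arrays carry p97FE65 wild type and 5 carry p97FE65 null cortex, p97FE65 being the full-length form of FE65 (gene Apbb1), an adaptor protein that binds the amyloid precursor protein. The null allele was made in R1 embryonic stem cells and was bred onto C57Bl/6J by repeated backcrossing, and null mice were set against wild type littermates, although no source used here says which arrays form a littermate pair. Apbb1 and Gprc5b both lie on chromosome 7, and DNA of the stem cells' own strain that is linked to a targeted gene can persist through backcrossing, which limits the null mice as a model of FE65 loss alone. Differences are written as labelled null minus labelled wild type. Their direction under the labels opposes the study's own tables, which list Gprc5b as 2.35-fold higher and Coq7 as lower in null cortex. By RT-PCR the study also found more of the differing Gprc5b stretch in null forebrain. Which genotype each label stands for was not tested here, so arrays are called wild type-labelled or null-labelled throughout.

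Raig receptors belong to family C of the G protein-coupled receptors, together with the metabotropic glutamate, GABA-B, calcium-sensing and sweet taste receptors. Unlike those relatives, they carry a short extracellular N-terminus and have no established ligand. Gprc5b is abundant in brain, in neurons and in glia, and has been tied to Frizzled receptors and to the non-canonical branch of Wnt signalling, which steers cell polarity and neurite shape. Its messenger RNA occurs in forms that differ in the acceptor site of the terminal exon and therefore in the C-terminal tail. In the study's scheme both Gprc5b probe sets lie toward the 3′ end of the transcript, and they are called here the upstream and the downstream probe set by their order along it. By the study's account, the upstream one lies in a stretch of the terminal exon that the shorter form lacks. Which form each one reads was not tested here. Gprc5c and Gprc5d are better known outside the brain, Gprc5d from the hair follicle and from plasma cells.

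The promoters of Gprc5b and Gprc5d are shown because the family takes its name from retinoic acid induction, and 2 of the family genes had a promoter entry (RefSeq, mouse assembly GRCm38.p6, 250 bases before to 50 bases after the annotated start). Both genes are on the minus strand and the sequences are written 5′ to 3′ along it, that of Gprc5b covering chr7:118995162-118995461 and that of Gprc5d chr6:135118234-135118533. Capitals mark the GC box GGGCGG or its reverse complement CCGCCC, the letters bound by Sp1-type factors.
Gprc5b: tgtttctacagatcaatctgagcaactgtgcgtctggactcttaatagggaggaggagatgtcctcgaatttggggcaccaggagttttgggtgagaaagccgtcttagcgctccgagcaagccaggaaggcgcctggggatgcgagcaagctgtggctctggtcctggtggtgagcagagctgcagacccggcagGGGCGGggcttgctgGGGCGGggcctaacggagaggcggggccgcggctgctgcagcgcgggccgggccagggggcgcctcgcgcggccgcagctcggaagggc
Gprc5d: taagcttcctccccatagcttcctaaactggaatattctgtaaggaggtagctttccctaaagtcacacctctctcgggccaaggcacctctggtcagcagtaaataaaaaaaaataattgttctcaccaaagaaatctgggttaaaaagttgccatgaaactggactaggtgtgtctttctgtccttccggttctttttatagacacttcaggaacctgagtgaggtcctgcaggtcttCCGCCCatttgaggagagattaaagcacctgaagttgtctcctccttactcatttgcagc
The Gprc5b window held 2 matches to GGGCGG and 66.3% GC, and the Gprc5d window held 1 match, as CCGCCC, and 44.3% GC. Over 32851 promoter windows of the same length, 35.7% held this motif and the median GC content was 52.7%. AGGTCA and its reverse complement TGACCT, the half-site bound by retinoic acid receptors among other nuclear receptors, had 0 matches in either window, against 16.3% of all windows with a match. These counts describe letters in the windows and say nothing of whether a factor binds there.

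The upstream probe set of Gprc5b separated the labelled groups, by an amount that rested in good part on a single mouse. On the wild type-labelled arrays, replicates 1 to 5 read 7.60, 7.08, 7.74, 7.07 and 7.45 (log2 GC-RMA expression). On the null-labelled arrays they read 6.92, 4.71, 6.60, 6.05 and 6.53. Every null-labelled array lay below every wild type-labelled one, and null replicate 2 lay far below the other arrays of its group. The group means were 7.39 ± 0.30 (SD, n = 5) and 6.16 ± 0.87 (SD, n = 5), a difference of -1.23 or 2.35-fold, the largest of all 22626 probe sets in size (rank 1). Without null replicate 2 the null mean was 6.52 ± 0.36 (SD, n = 4) and the difference -0.87, or 1.83-fold, and the groups still did not overlap. Since the tissue was taken whole, fewer cells with the RNA that this probe set reads and less of that RNA per cell cannot be told apart. A change in the form of Gprc5b, which the study reported between its genotypes, was not tested here.

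The downstream probe set of the same gene did not separate the groups. On the wild type-labelled arrays, replicates 1 to 5 read 8.12, 7.77, 8.01, 8.26 and 7.96 (log2). On the null-labelled arrays they read 8.53, 7.95, 7.59, 7.42 and 7.94. The highest and both of the lowest of the 10 values belonged to null-labelled arrays, so that this group spanned the range of the other. The means were 8.02 ± 0.18 (SD, n = 5) and 7.89 ± 0.42 (SD, n = 5), a difference of -0.14 or 1.10-fold. Null replicate 2, the mouse lowest for the upstream probe set, was at 7.95 here, close to the middle of both groups.

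Gprc5c and Gprc5d were dim on every array. Gprc5c read 2.24, 2.34, 2.22, 2.38 and 2.03 in wild type-labelled replicates 1 to 5 and 2.19, 2.24, 2.34, 2.29 and 2.26 in null-labelled replicates 1 to 5. Gprc5d read 1.72, 2.06, 1.94, 1.82 and 1.86 in wild type-labelled replicates 1 to 5 and 1.75, 1.95, 1.87, 1.85 and 1.79 in null-labelled replicates 1 to 5. The groups overlapped in both. Array medians over all probe sets lay between 3.01 and 3.14, which puts every value of both genes below its array's median, with mean levels at the 34.2th and 21.6th percentiles of all probe sets. The differences were 0.02 for Gprc5c and -0.04 for Gprc5d, smaller than the SD of either group (0.06 to 0.13). At these signals the arrays give little room to see a change in either transcript. Of the 4 Gprc5 probe sets, 1 had groups that did not overlap, beside 0.623% of all probe sets, and nothing is read from that count because this contrast chose the gene.

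**Figure D1:**
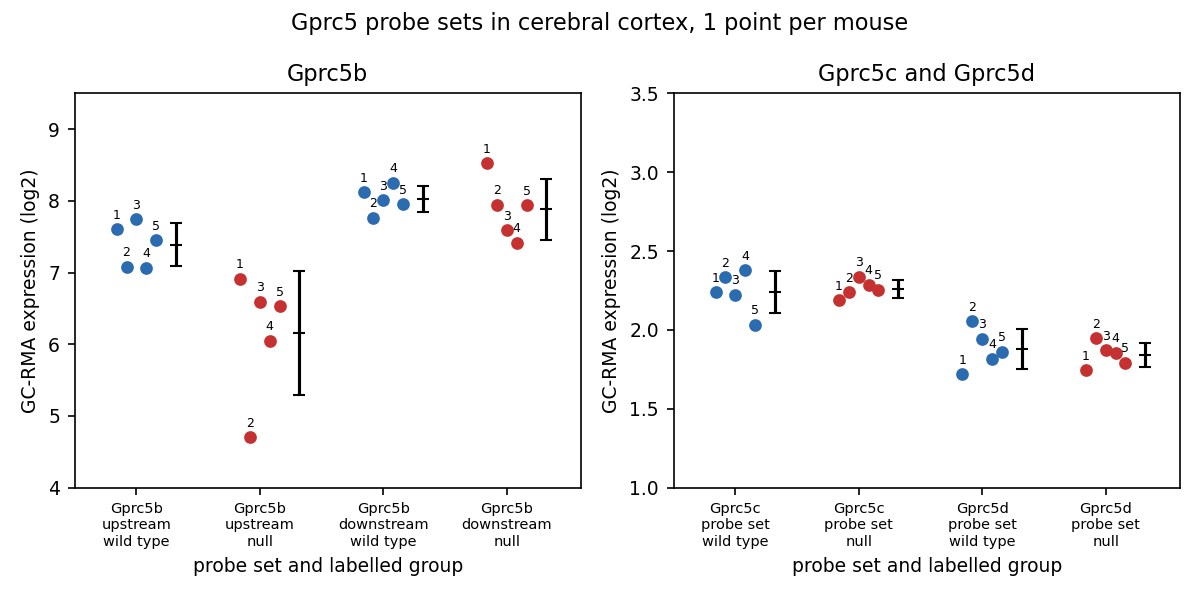
GC-RMA expression (log2, vertical axes) of the 4 Gprc5 probe sets by labelled group, with 1 numbered point per mouse (blue, wild type-labelled, n = 5; red, null-labelled, n = 5) and black bars for the mean ± SD. For the upstream probe set, null replicate 2 stands at 4.71 and all null-labelled mice lie below the wild type-labelled ones, whereas the groups overlap for the other 3 probe sets.

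The spread of Gprc5b between mice was wider in the null-labelled arrays. It was wide beside other probe sets, except for the downstream probe set among wild type-labelled mice. For the upstream probe set the SD among null-labelled mice was 0.87, rank 20 of 22626 probe sets and at the 99.8th percentile of the 7827 probe sets with a mean of at least 5. Among wild type-labelled mice the SD was 0.30, at the 84.8th percentile of the same set, where the median SD was 0.17 in either group. The ratio of the SDs, null over wild type, was 2.86, and 5.02% of those 7827 probe sets had a ratio at least as high. Leaving out null replicate 2 brought the ratio to 1.18 and the SD among null-labelled mice to the 87.2th percentile. For the downstream probe set the SDs were 0.42 and 0.18, at the 94.2th and 55.4th percentiles, with a ratio of 2.32. This wider spread came from null replicates 1 and 4, at 8.53 and 7.42, and not from null replicate 2.

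Within a mouse, the signals of the Gprc5b probe sets were subtracted, which shows unequal change along the transcript but not a level, since probe sets differ in brightness. The difference, upstream minus downstream, was -0.51, -0.68, -0.27, -1.19 and -0.50 in wild type replicates 1 to 5. In null replicates 1 to 5 it was -1.61, -3.24, -1.0, -1.37 and -1.41. The groups overlapped by 1 mouse on each side: wild type replicate 4 lay below null replicate 3. The means were -0.63 ± 0.34 (SD, n = 5) and -1.73 ± 0.88 (SD, n = 5), with null replicate 2 again apart from its group.

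The probe sets of Gprc5b did not vary together between mice beyond what an exact permutation test allows. After each value was set relative to its group mean, Pearson's r between the upstream and the downstream probe set was 0.21 over the 10 mice (exact permutation within groups, two-sided, p = 0.668, adjusted over 6 pairs of Gprc5 probe sets 0.67) and Spearman's rho was 0.05 (p = 0.902 by the same permutation test). Without the 2 mice farthest from the median of the downstream probe set, null replicates 1 and 4, r was -0.29 (exact permutation p = 0.649). Leaving out single mice moved r from -0.27 without null replicate 1 to 0.59 without null replicate 2, so its sign rested on single mice. Gprc5d ran opposite to both Gprc5b probe sets, with r = -0.53 to the downstream probe set (exact permutation p = 0.0621) and r = -0.51 to the upstream probe set (exact permutation p = 0.0628), and neither passed after adjustment (0.188 for each). Of the 14799 probe sets with a mean under 5, 22.8% and 12.7% had an r as low or lower with the downstream probe set and the upstream probe set. For Gprc5c the correlations were -0.23 and -0.16 (exact permutation p = 0.386 and 0.521).

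**Figure D2:**
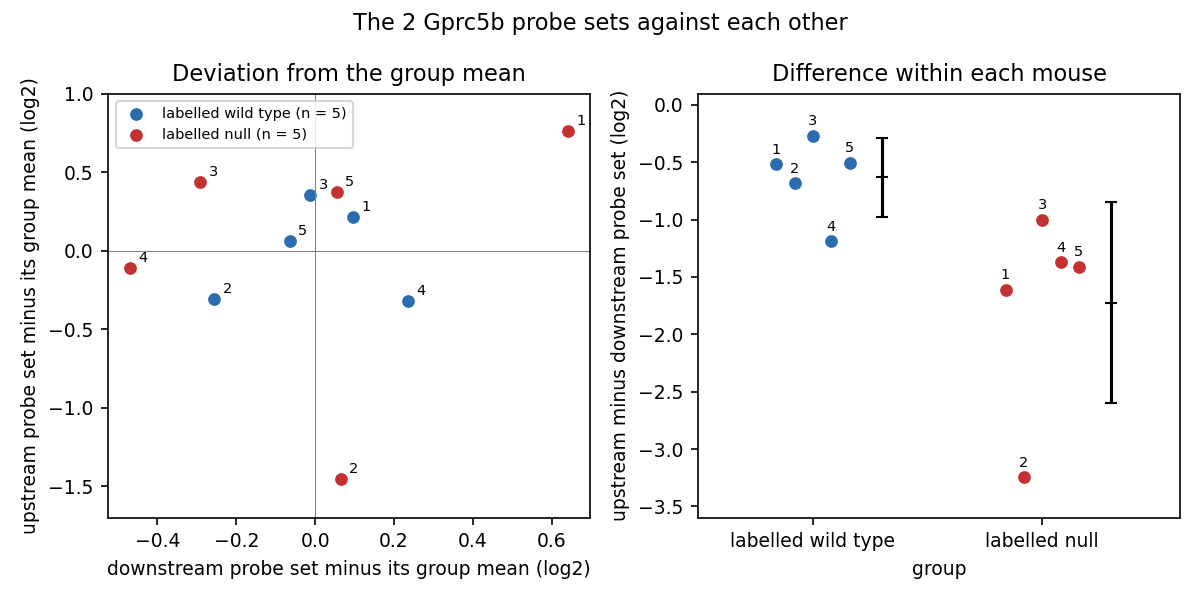
Left, each mouse's deviation from its group mean (log2) for the downstream (horizontal axis) and upstream (vertical axis) probe sets. Right, upstream minus downstream (log2, vertical axis) in each mouse by labelled group, with black bars for the mean ± SD (n = 5 each). Null replicate 2 stands apart along the upstream axis, at -3.24 in the right panel, but not along the downstream one.

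Gprc5b had larger SDs than the other family C receptors measured here, but none of these had a signal near its level. Of 18 such genes listed, 7 had a probe set, and of these 1, the GABA-B receptor subunit Gabbr1, had a mean of at least 5. Gabbr1 was at 12.30 ± 0.04 (SD, n = 5) on wild type-labelled and 12.20 ± 0.09 (SD, n = 5) on null-labelled arrays, a difference of -0.10 (SE 0.05) that did not pass by limma (adjusted p = 0.999). The glutamate receptor Grm8, the calcium-sensing receptor Casr, the amino acid receptor Gprc6a and the taste receptors Tas1r1, Tas1r2 and Tas1r3 had means between 2.04 and 3.01 and SDs between 0.05 and 0.11 in both groups. Signals this low carry small SDs on this scale. The SD of Gabbr1 among null-labelled mice, 0.09, was below both Gprc5b probe sets. Gabbr1, at a mean of 12.25, was however far brighter than the upstream (6.78) and downstream (7.95) probe sets, so no comparison was like with like. Among all probe sets with a mean of at least 5, the downstream SD in wild type-labelled mice was at the 55.4th percentile. No test of these SDs was made. From mouse to mouse, relative to the group means, Gabbr1 had r = -0.19 with the upstream and 0.57 with the downstream probe set. The dim Casr, Gprc6a, Tas1r1, Tas1r2 and Tas1r3 had negative r with both, from -0.64 to -0.27 and from -0.73 to -0.57. The likewise dim Grm8 had r = 0.66 with the upstream probe set, which came to 0.14 without null replicate 2, and -0.09 with the downstream one.

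**Figure D3:**
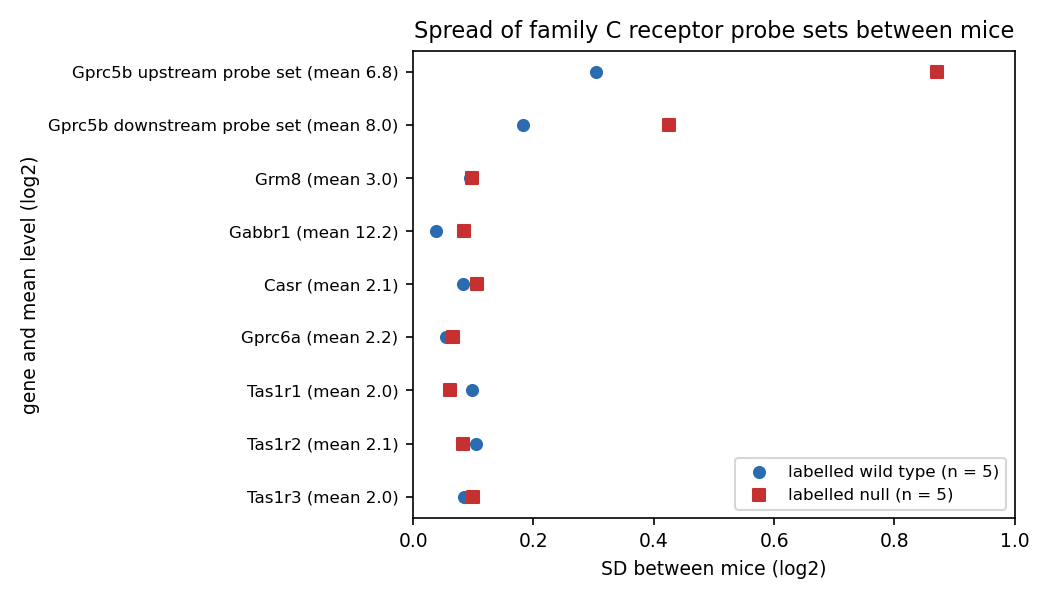
SD between mice (log2, horizontal axis) for the Gprc5b probe sets and the brightest probe set of each other measured family C receptor, with the mean level beside each name (blue circles, wild type-labelled, n = 5; red squares, null-labelled, n = 5). Both Gprc5b probe sets lie to the right of the other receptors in both groups, with the upstream probe set at 0.87 among null-labelled mice.

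Around Gprc5b on chromosome 7, the 5 measured genes on either side were read, each by its brightest probe set. Coq7, a hydroxylase of ubiquinone synthesis 4 measured genes away, read 8.19, 8.27, 8.07, 8.16 and 8.15 in wild type replicates 1 to 5. It read 8.53, 8.59, 8.78, 8.54 and 9.01 in null replicates 1 to 5. All null-labelled mice were thus above all wild type-labelled mice, the opposite order to the upstream probe set, with a difference of 0.52 (SE 0.09), and the adjusted p from limma was 0.822. The synaptotagmin Syt17 differed by 0.22 (SE 0.07), with an adjusted p of 0.999 from limma. The other 8, among them Gde1, Vps35l and Knop1 on that side and Gp2, Umod, Acsm2, Acsm1 and Thumpd1 on the other, differed by -0.08 to 0.07. Coq7 and Syt17 thus had an unadjusted limma p under 0.05 and the other 8 did not, beside 3.67% of all probe sets, and 0% had an adjusted one, the lowest adjusted p being 0.822. Neither Coq7 nor Syt17 followed the upstream probe set within groups (r = 0.17 and -0.13), and their r with the downstream probe set was -0.18 and -0.52. Among the other 8, the largest r in size were those of Knop1 (0.74) and Gde1 (0.55) with the downstream probe set and of Acsm1 (-0.65) with the upstream one. Knop1 and Acsm1 were dim, at means of 1.87 and 1.90.

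To ask which transcripts rise and fall with Gprc5b from mouse to mouse, each probe set was fitted in limma on the group and on the array's value of a Gprc5b probe set, so that the difference between the labelled groups plays no part. For neither Gprc5b probe set did any other pass an adjusted p of 0.05 (0 of 22625 each, lowest adjusted p 0.893 for the upstream probe set and 0.571 for the downstream probe set). At an unadjusted p under 0.05 there were 844 for the upstream probe set (3.73%) and 1709 for the downstream probe set (7.55%), where 1131 would fall by chance. Probe sets that ran opposite outnumbered those that ran along, by 572 (2.53%) to 272 (1.2%) for the upstream and by 1161 (5.13%) to 548 (2.42%) for the downstream probe set. The lean was among dim probe sets: the median r of probe sets with a mean under 5 was -0.16 with the upstream probe set and -0.30 with the downstream probe set, against 0.01 and 0.03 among brighter ones. The named likenesses below are therefore a ranking over 10 mice, taken from the 7153 probe sets with 1 gene and a mean of at least 5, and not calls. The exact permutation p given with them takes no account of this choice by r.

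With the upstream probe set, the transcripts that ran most nearly along were those of the zinc finger protein Zpr1 (r = 0.92), the N-terminal acetyltransferase subunit Naa15 (0.91), the lipid-binding protein Sec14l1 (0.90), the carboxypeptidase Scpep1 (0.89), itself known as retinoid-inducible, and the early endosome GTPase Rab5c (0.89). The clathrin light chain Cltb (0.87), the RNA exosome subunit Exosc7 (0.86), the Golgi GTPase Rab2b (0.86), Baalc (0.84) and Ccar2 (0.83) followed. Zpr1 read 5.86, 5.76, 5.92, 5.80 and 5.93 in wild type replicates 1 to 5 and 5.98, 5.61, 5.83, 5.83 and 5.86 in null replicates 1 to 5. Null replicates 1 and 2 were its highest and lowest arrays, as they were within the null group for the upstream probe set. Its rho was 0.70, the exact permutation p of r was 0.0025, and r without null replicates 1 and 2, the mice farthest from the median, was 0.70. Cltb kept the highest r of the 10 when both were left out, at 0.86.

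Opposite to the upstream probe set ran Ap3m1, a subunit of the AP-3 adaptor complex that sorts cargo from endosomes to lysosomes (r = -0.97), the aldo-keto reductase Akr7a5 (-0.92), Tnfaip8l1 (-0.92), Mcrip1 (-0.92), the mitochondrial magnesium channel Mrs2 (-0.88), Tcf25 (-0.88), the replication helicase subunit Mcm2 (-0.87), the neuronal ubiquitin ligase Trim2 (-0.86), the anaphase-promoting complex subunit Anapc5 (-0.86) and the Golgi protein Sys1 (-0.86). Ap3m1 read 5.73, 5.78, 5.75, 5.78 and 5.74 in wild type replicates 1 to 5 and 5.70, 5.97, 5.73, 5.78 and 5.70 in null replicates 1 to 5. Null replicate 2 was its one array set apart, and the other 9 covered less than 0.1 on the log2 scale. Its rho was -0.95, its exact permutation p 0.00215 and its r without null replicates 1 and 2 -0.83. All 20 named likenesses were weakest without null replicate 2. Among them 12 kept a size of at least 0.5 whichever mouse was left out, and the smallest, that of Baalc, came to 0.11. The limma adjusted p of the 20 ran from 0.893 to 1.

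With the downstream probe set, the ranking held other genes, and most of these leaned on null replicate 1 rather than on null replicate 2. Running along were Clk2, a kinase of SR splicing factors (r = 0.93), the chromatin remodelling subunit Arid1a (0.89), the Src-family kinase Fyn (0.88), Pwwp3a (0.88), the importin Kpna3 (0.87), elongin B (Elob, 0.86), the potassium channel subunit Kcnj3 (0.86), the signal peptidase subunit Spcs2 (0.86), Nrip3 (0.86) and the RNA-binding protein Zfp36l2 (0.86). Clk2 read 5.77, 5.64, 5.69, 5.80 and 5.81 in wild type replicates 1 to 5 and 6.12, 5.97, 5.81, 5.74 and 5.94 in null replicates 1 to 5. As for the downstream probe set, null replicate 1 was the highest and null replicate 4 the lowest of the null-labelled arrays. Its rho was 0.79, its exact permutation p 0.00181 and its r without those 2 mice 0.81.

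Opposite to the downstream probe set ran the RNA polymerase III subunit Polr3e (r = -0.92), the galactosyltransferase B4galt1 (-0.89), the clamp loader subunit Rfc5 (-0.88), Smim3 (-0.88), Nacc2 (-0.85), the endoplasmic reticulum protein Erlin1 (-0.85), the mucin-type glycosylation enzyme Galnt1 (-0.83), Lor (-0.83), the ribosome biogenesis factor Utp4 (-0.83) and the glucocorticoid-induced kinase Sgk1 (-0.83). Polr3e read 5.31, 5.52, 5.33, 5.26 and 5.43 in wild type replicates 1 to 5 and 5.07, 5.33, 5.33, 5.52 and 5.34 in null replicates 1 to 5. Its lowest array was null replicate 1, the highest for the downstream probe set, and its r was -0.73 without null replicates 1 and 4 (exact permutation p = 0.000764 over all 10 mice, rho = -0.82). All 20 named likenesses kept a size of at least 0.51 whichever mouse was left out, and their limma adjusted p ran from 0.571 to 0.65. All but those of Elob, Rfc5 and Smim3 were weakest without null replicate 1, that of Utp4 coming to -0.51. Without null replicate 4, 8 other probe sets passed an adjusted limma p of 0.05 with the downstream probe set. Among them Tmcc3, Atf2, Sult4a1 and Gnb2 ran along and Myh9 ran opposite, and 0 of the 8 were among the 20. Tmcc3, Atf2, Fads2, Ip6k1 and Kmt5b, at means of 4.99, 4.89, 3.23, 2.33 and 3.29, fell under the minimum mean of 5 and could not be ranked. Of the 40 transcripts named for either probe set, 3 (Spcs2, Nrip3 and Polr3e, 7.5%) lie on chromosome 7 with Gprc5b, as do 5.61% of the 7153 probe sets ranked.

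**Figure D4:**
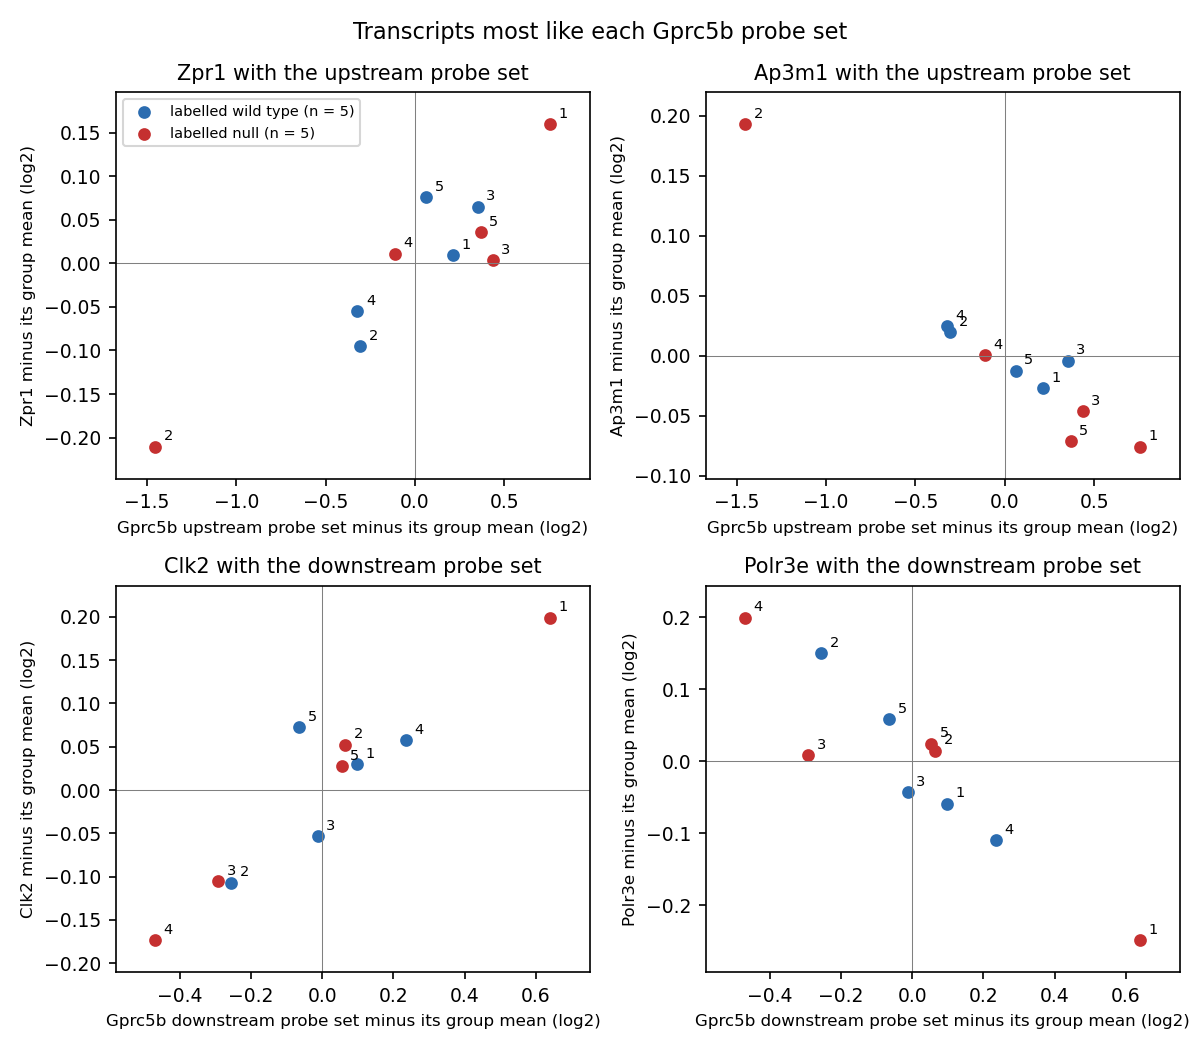
Deviation from the group mean (log2) of the transcripts ranked first in each direction (vertical axes) against that of the upstream probe set (upper panels) or the downstream probe set (lower panels, horizontal axes), with 1 numbered point per mouse (blue, wild type-labelled, n = 5; red, null-labelled, n = 5). Null replicate 2 lies far to the left for Zpr1 (r = 0.92) and Ap3m1 (r = -0.97), whereas null replicates 1 and 4 lie at the ends for Clk2 (r = 0.93) and Polr3e (r = -0.92).

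For the gene lists each gene was represented by its brightest probe set, and in each list 0 genes passed an adjusted limma p of 0.05, for the difference between the groups and for the relation to either Gprc5b probe set alike. Over the 12393 genes so read, 1.33% were higher and 2.61% lower with the null label at an unadjusted p under 0.05, and the median r was -0.11 with the upstream probe set and -0.19 with the downstream probe set. Of 36 genes of Frizzled receptors and non-canonical Wnt signalling, 33 were measured, 8 of them with a mean of at least 5, and 0 had an unadjusted p under 0.05 in either direction, with a median difference of -0.01. The small GTPase Rhoa, a cytoskeletal effector of this branch, had a difference of -0.24 (SE 0.12). The median r of the 33 was -0.11 with the upstream probe set and -0.28 with the downstream probe set. Most of the 33 were dim, and all probe sets with a mean under 5 had medians of -0.16 and -0.30, so neither value stands out. The bright Celsr2 (mean 8.70) ran along the downstream probe set (r = 0.61, unadjusted limma p = 0.0583). At an unadjusted p under 0.05, 4 of the 33 ran opposite to the downstream probe set and 0 along it, beside 5.13% and 2.42% of all probe sets: the Wnt receptor Fzd3 (r = -0.83), the polarity protein Vangl1 (-0.80), the receptor kinase Ror2 (-0.75) and the ligand Wnt7b (-0.67). With the upstream probe set 1 ran opposite, the ligand Wnt11 (-0.71), and 0 along. The adjusted limma p of these 5 ran from 0.611 to 1. Wnt7b had a mean of 5.16 and the other 4 had means under 4.

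Of 25 genes of retinoic acid synthesis, transport and reception, 20 were measured and 4 had a mean of at least 5. At an unadjusted limma p under 0.05, 1 was higher with the null label, the retinoic acid receptor Rarb (0.16, SE 0.07, adjusted p = 0.999), and 1 was lower, the retinaldehyde dehydrogenase Aldh1a1 (-0.22, SE 0.09, adjusted p = 0.999). Both were dim, at means of 3.18 and 3.16. Over all genes 1.33% were higher and 2.61% lower at that threshold. The median r of the 20 was -0.10 with the upstream probe set and -0.21 with the downstream probe set, near the values over all genes, and 0 had an unadjusted p under 0.05 with either.

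Genes that act in splice site choice were read because the forms of Gprc5b differ in a terminal exon acceptor. Of 38 listed, 34 were measured and 28 had a mean of at least 5. At an unadjusted limma p under 0.05, 0 were higher and 3 lower with the null label: the branch point binding protein Sf1 (-0.29, SE 0.11), the neuronal splicing factor Rbfox3 (-0.37, SE 0.13) and the RNA-binding protein Elavl2 (-0.27, SE 0.11), each with an adjusted p of 0.999. Rbfox3 was dim, at a mean of 4.16. Over all genes 1.33% were higher and 2.61% lower at that threshold. Of the 7827 probe sets with a mean of at least 5, fitted alone, 47 were higher and 307 lower. The median difference of the list was -0.07, against -0.002 over all genes. Sf1, Rbfox3 and Elavl2 did not follow either Gprc5b probe set, with r between -0.22 and 0.25. The median r of the list was -0.01 with the upstream probe set and 0.00 with the downstream probe set, and Khdrbs3, a STAR-family splicing regulator, had r = 0.71 with the downstream probe set (adjusted limma p = 0.629).

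Marker genes of cortical cell types were set beside Gprc5b, since it is made in neurons and in glia. All 12 interneuron markers were measured, with Gad1 at a mean of 12.1 and Sst at 10.6, and their mean level ran from 8.21 to 8.33 on wild type-labelled and from 8.20 to 8.51 on null-labelled arrays. Their median r was 0.41 with the upstream probe set, with 8 of 12 above 0, and 0.40 with the downstream probe set, with 9 of 12 above 0. Over all genes 38% and 33.7% had an r above 0. Of the 12 markers 9 had a mean of at least 5, and all probe sets that bright had a median r of 0.01 and 0.03. Reln, the secreted glycoprotein of layer I and of interneurons, had r = 0.72 with the upstream probe set (0.45 without null replicate 2) and differed by 0.34 between the groups (SE 0.10, adjusted limma p = 0.999). The GABA synthesis and transport genes Gad2 and Slc32a1 had r = 0.74 and 0.71 with the downstream probe set, and Calb2 and Dlx1 0.75 and 0.66. Without null replicate 1 those of Gad2, Calb2 and Dlx1 came to 0.16, -0.035 and -0.26, so they rested on that mouse. Calb2 and Dlx1 were dim, at means of 3.43 and 2.35. The bright Vip ran opposite to the upstream (r = -0.53) and the downstream probe set (-0.43), as did the dim Lhx6 (-0.32 and -0.40). Of 19 oligodendrocyte markers 15 were measured, at mean levels of 6.99 to 7.37 on wild type-labelled and 6.85 to 7.18 on null-labelled arrays. Their median r was 0.35 with the downstream probe set, with 13 of 15 above 0, and 0.10 with the upstream probe set, with 12 of 15 above 0. At an unadjusted p under 0.05, 3 of them were lower with the null label, the myelin gene Mbp (-0.23, SE 0.07), the tight junction gene Cldn11 (-0.52, SE 0.22) and the lineage factor Olig2 (-0.18, SE 0.08). At the same threshold 2 of 15 astrocyte markers were lower (S100b, -0.25, and Slc4a4, -0.20) and 1 higher (Clu, 0.13), and 2 of 15 endothelial and mural markers were lower (Rgs5, -0.24, and Egfl7, -0.20) and 1 higher (Abcc9, 0.17), beside 2.61% lower and 1.33% higher over all genes. The adjusted limma p of each was 0.999. Olig2 and Abcc9 were dim, at means of 3.49 and 1.41. The part of either cell type in the levels of Gprc5b was not tested.

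All 15 astrocyte markers were measured, and their median r was -0.08 with the upstream probe set and 0.00 with the downstream probe set. They pointed both ways with the downstream probe set: Gfap (r = 0.65) and Aldh1l1 (0.64) ran along and Sox9 (-0.87) ran opposite, while Ndrg2 ran along the upstream probe set (0.68, and 0.37 without null replicate 2). Of the 15, 6 had an r above 0 with the upstream and 7 with the downstream probe set. The bright Clu, which encodes the chaperone clusterin, had r = -0.65 with the upstream and -0.69 with the downstream probe set, the latter 0.04 without null replicates 1 and 4. That of Gfap came to -0.0040 without null replicate 1. Sox9 was dim, at a mean of 3.65. Of 16 endothelial and mural markers 15 were measured, with a median r of -0.08 and -0.11, and 5 and 7 of the 15 had an r above 0 with the upstream and the downstream probe set. With the downstream probe set, Kdr (0.54) and Pdgfrb (0.52) had a positive r and Egfl7 (-0.53), Slc2a1 (-0.37) and Flt1 (-0.35) a negative one. The highest r was that of the tight junction gene Cldn5, at 0.82 (exact permutation p = 0.00639, rho = 0.90) and 0.93 without null replicates 1 and 4. Cldn5 read 4.96, 4.05, 4.62, 5.17 and 4.44 in wild type replicates 1 to 5 and 4.95, 4.97, 4.44, 3.68 and 4.71 in null replicates 1 to 5, lowest in null replicate 4 as the downstream probe set was, and its adjusted limma p was 0.571. Pyramidal neuron markers (13 of 16 measured) had a median r of -0.08 and -0.04, and microglial markers (13 of 14) 0.24 and -0.23. Among markers of tissues next to the cortex, the highest group mean was 6.37 for the 4 choroid plexus genes, 7.30 for the 5 striatal genes and 2.35 for the 2 blood genes, with 0 of them past an unadjusted p of 0.05 in any of these fits. Of the striatal genes 3 had a mean of at least 5. The choroid plexus gene Ttr varied widely, with an SD of 1.20 (n = 5) among wild type-labelled and 0.65 (n = 5) among null-labelled mice, and had r = -0.12 and -0.08 with the upstream and the downstream probe set.

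**Figure D5:**
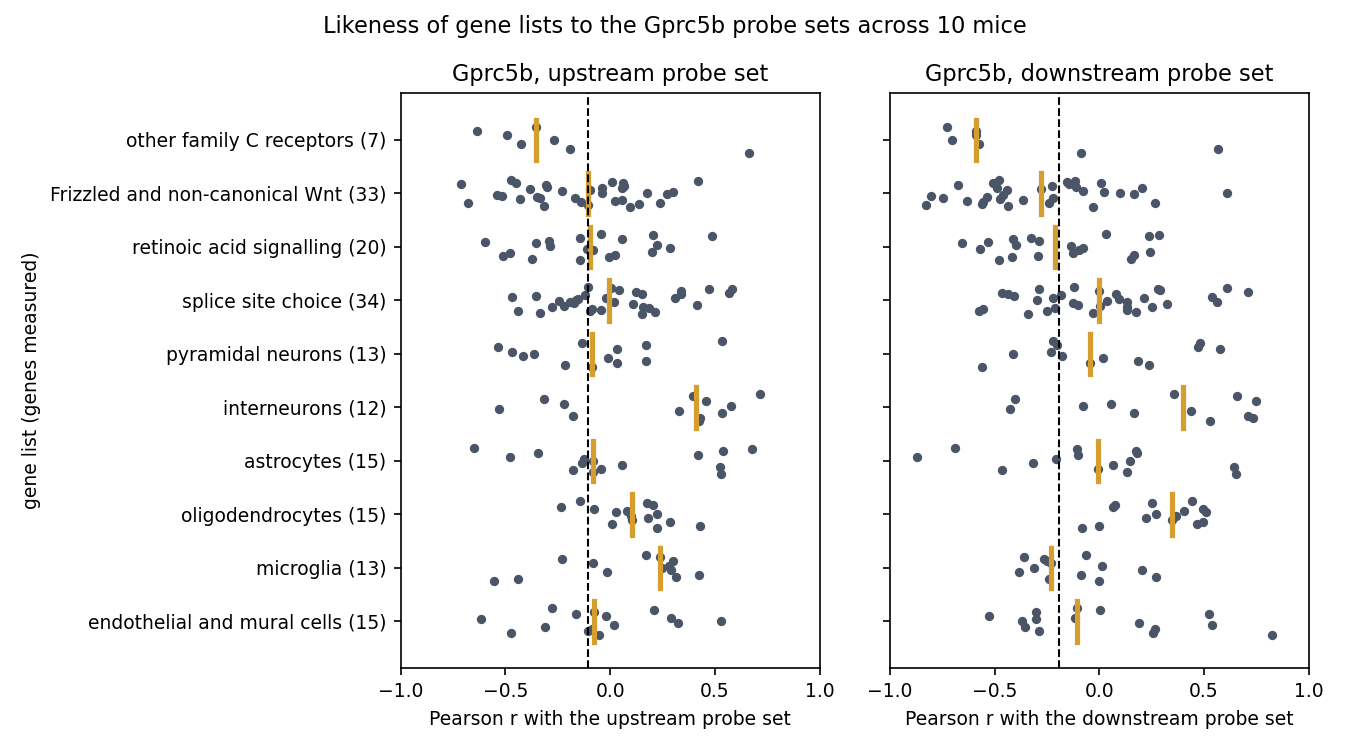
Pearson's r of group-centred values over 10 mice (horizontal axes) between each measured gene of 10 lists (points, with the number measured beside each name) and the upstream probe set (left) or the downstream probe set (right), with orange bars for list medians and a dashed line for the median over all genes. Interneuron markers have medians of 0.41 and 0.40, and the dashed lines stand at -0.11 and -0.19. These lines include dim genes, and probe sets with a mean of at least 5 have medians of 0.01 and 0.03.

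Measures of the arrays themselves were compared with the Gprc5b probe sets over the same 10 mice. Among 8 relations, with the array median, the first component of the group-centred values and the 3′ minus 5′ signal of Gapdh and of Actb, the closest was that of the downstream probe set with the array median (r = -0.52, exact permutation p = 0.0515, adjusted 0.395, rho = -0.38, and r = -0.61 without the 2 arrays farthest from the median). The other 7 had an r between -0.42 and -0.08 and adjusted exact permutation p from 0.395 to 0.852. Null replicate 2 had an array median of 3.06, within the range of the other arrays, and a first component score of 0.36 on an axis that ran from -23.2 to 24.5.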

How the data were processed

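Per the labels, the authors made the deposited log2 expression values with GC-RMA, which corrects for non-specific binding from the base content of the probes, normalises across arrays and summarises each probe set, in a version that no source used here gives. The values were used as deposited. The upstream Gprc5b probe set is 1451411_at and the downstream one 1424613_at; Gprc5c was read by 1424450_at and Gprc5d by 1420538_at. Of 22690 probe sets, 64 were controls, read for Gapdh and Actb alone, and 22626 entered the tests; 20380 carried 1 gene, 691 several and 1555 none, and 20351 were matched to assembly GRCm38.p6 for names and chromosomes. Correlations between arrays were 0.994 to 0.999.

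Fits used limma 3.58.1 (lmFit, eBayes) in R 4.3.3 with group as the term, and for relations to Gprc5b its array value as a covariate, with Benjamini-Hochberg adjustment over all probe sets and a threshold of 0.05. Correlations used group-centred values with exact permutation within groups (14400 arrangements). Scripts were tested on simulated data. Gprc5 members and gene lists were chosen with earlier results of these data known. Named genes are the 10 highest and 10 lowest r with each Gprc5b probe set, 5 measured genes either side of Gprc5b, and up to 4 list members by p or by r. Alternatives were median centring, quantile normalisation, a minimum mean of 5, a floor at 4, a replicate block, array weights, an intensity trend (robust prior), the methods' test, the first component as a covariate, and leaving out each array. P-values rest on the variation between these mice and, in the main fits, take no account of littermate pairs. The number of arrays limits the precision.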

Additional observations from a re-analysis of the deposited data

Results flagged for a closer look

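The within-mouse difference of the Gprc5b probe sets, upstream minus downstream, had 1 null-labelled array far from the other 4. Null replicate 2 stood at -3.24 and its nearest neighbour, null replicate 1, at -1.61, and this gap was 0.728 of the whole range of the group, above Dixon's 95% critical value of 0.71 for 5 samples. Of 10 groups examined this was the 1 that exceeded its limit, and only narrowly. Chance alone gives about 1 in 20 for each group, so 1 flag among 10 groups can readily arise by chance.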

How the results depend on the processing

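The difference of the upstream Gprc5b probe set kept its direction under every alternative run (-1.18 after quantile normalisation, and -1.42 to -0.87 with 1 array left out). The difference of the downstream probe set ran from -0.30 to -0.02 with 1 array left out, and those of Gprc5c and Gprc5d changed sign in that range, at -0.03 to 0.05 and -0.08 to 0.01. At a floor of 4 Gprc5c and Gprc5d stood at 4 on every array, so they were left out of that alternative. The correlation of the Gprc5b probe sets was -0.16 with a replicate block (exact permutation p = 0.817) and -0.27 to 0.59 with 1 array left out. The cause was not tested. Replicate numbers were not taken as pairs, since no source used here says which arrays are littermates. The correlations of same-numbered deviations were 0.0474 to 0.457 and 1 of 5 wild type arrays matched its own number best. Such correlations cannot decide whether equal numbers are pairs. The block raised the unadjusted count for the upstream probe set to 2467.

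Adjusted calls stayed at 0 for the contrast, for the upstream probe set and for the gene lists under all alternatives run, and for the downstream probe set ran from 0 to 8 with 1 array left out, the 8 without null replicate 4. With the downstream probe set, r ran from -0.035 to 0.83 for Calb2, from -0.26 to 0.81 for Dlx1 and from -0.0040 to 0.85 for Gfap with 1 array left out.

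Unadjusted counts moved most. Of all probe sets 281 were higher and 549 lower with the null label, but 524 and 420 after quantile normalisation, 47 and 307 at a mean of at least 5, 95 and 304 with the floor, 597 and 852 with array weights, and 200 to 448 and 395 to 1276 with 1 array left out, highest for the lower count without null replicate 5 and for the higher count without wild type replicate 2. For the upstream probe set 844 became 158, 274 and 1372 at that mean, floor and weighting, and 638 to 1425 with 1 array left out, the most without null replicate 2. For the downstream probe set 1709 became 314 and 468 at that mean and floor, and 1145 to 2375 with 1 array left out.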
